A study of Homo sapiens with 3 samples.

Results

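Cyclins are the regulatory partners of the cyclin-dependent kinases (CDKs), and their rise and fall times the cell cycle. The 10 cyclin genes described here were CCNA2, CCNB1, CCNB2, CCND1, CCND2, CCND3, CCNE1, CCNE2, CCNG1 and CCNG2. They were taken by name: every probe set whose platform annotation gave exactly 1 gene symbol, and that symbol a member, was kept. This gave 25 of the 54613 probe sets that were no controls, and 10 of 19775 genes. RNA came from KYSE140, an established human cell line from an oesophageal squamous cell carcinoma, on 3 Affymetrix arrays. The groups were 1 array of untreated cells and 2 arrays, titled B1 and B2, of cells kept with cisplatin for 12 h at a labelled 10 mM, a unit that is in doubt because cultured cells usually receive micromolar doses. All cells shared the same line and the same serum-containing RPMI medium with antibiotics. The labels do not say whether B1 and B2 were separate cultures, so the spread between them may be technical.

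D-type cyclins (CCND1, CCND2 and CCND3) answer growth signals and, with CDK4 and CDK6, begin the phosphorylation of RB that frees E2F factors. E2F then drives cyclin E (CCNE1, CCNE2), which with CDK2 starts DNA replication, cyclin A2 (CCNA2) acts through S phase and G2, and cyclins B1 and B2 (CCNB1, CCNB2) with CDK1 bring cells into mitosis. Cyclins G1 and G2 are atypical: CCNG1 is a target of p53 that binds subunits of protein phosphatase PP2A, and CCNG2 is linked to cell cycle arrest and is induced by FOXO factors. Cisplatin crosslinks DNA and is known to hold cells in S phase and G2. In RNA from a whole culture, a change in the share of cells in a phase and a change in cyclin RNA per cell cannot be told apart.

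The transcripts of cyclins A2, B1 and B2 are made periodically and peak late in the cycle, and their promoters are textbook examples of CCAAT boxes bound by NF-Y. RefSeq promoters (build GRCh38.p14) were at hand for 7 of the 10 genes, with 10 start sites. The 250 bases before the start are shown for these 3 genes and for CCNE1. By the brightest probe set of each gene, values of these 3 stayed closest to the untreated array, and those of CCNE1 lay furthest above it. Capitals mark matches on either strand to CCAAT, to TTTGAA (a spelling of the cell cycle genes homology region, CHR) or to the E2F-type letters TTCGCGC or TTGGCGC. The last base of each line is the base before the start.
CCNA2, chr4:121823884-121824133, minus strand: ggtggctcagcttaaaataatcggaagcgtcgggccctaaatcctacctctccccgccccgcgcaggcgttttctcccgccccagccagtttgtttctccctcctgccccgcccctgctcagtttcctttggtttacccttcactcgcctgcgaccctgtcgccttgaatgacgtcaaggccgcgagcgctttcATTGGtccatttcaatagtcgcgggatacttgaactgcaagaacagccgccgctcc
CCNB1, chr5:69166900-69167149, plus strand: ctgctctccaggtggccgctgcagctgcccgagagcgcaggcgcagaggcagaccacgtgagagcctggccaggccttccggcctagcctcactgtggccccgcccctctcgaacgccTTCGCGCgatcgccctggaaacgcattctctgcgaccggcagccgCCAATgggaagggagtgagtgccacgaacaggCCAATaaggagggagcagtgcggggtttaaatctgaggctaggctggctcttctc
CCNB2, chr15:59104896-59105145, plus strand: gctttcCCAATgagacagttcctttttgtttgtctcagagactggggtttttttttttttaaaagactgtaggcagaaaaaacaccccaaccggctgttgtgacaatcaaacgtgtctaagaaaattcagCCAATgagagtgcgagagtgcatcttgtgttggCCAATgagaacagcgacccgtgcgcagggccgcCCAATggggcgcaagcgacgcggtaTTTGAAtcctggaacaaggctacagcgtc
CCNE1, chr19:29811741-29811990, plus strand: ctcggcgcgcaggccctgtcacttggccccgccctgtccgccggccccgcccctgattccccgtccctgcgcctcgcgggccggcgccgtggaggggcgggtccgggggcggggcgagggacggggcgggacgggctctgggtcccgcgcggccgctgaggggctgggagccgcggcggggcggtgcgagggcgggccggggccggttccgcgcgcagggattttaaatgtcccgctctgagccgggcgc

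Each of the mitotic cyclins had a CCAAT match at nearly the same place. It began 56 bases before the start in CCNA2 (as ATTGG, on the other strand), 55 in CCNB1 and 54 in CCNB2. CCNB1 held 2 CCAAT matches and CCNB2 held 4, against 1 in CCNA2 and 0 in CCNE1. CCNB2 alone of the 10 member starts had TTTGAA, beginning 29 bases before the start, and CCNB1 alone had an E2F-type match, beginning 132 bases before it. Over all 35116 promoters of the same length, 32.0% held CCAAT, 13.3% TTTGAA and 4.24% an E2F-type match. CCAAT was also found at both starts of CCNG1 and at 2 of the 3 starts of CCND3, and at none of CCNG2. The place was not particular to the mitotic cyclins, as 1 CCNG1 match also began 54 bases before its start. The 250 bases before CCNE1 were 81.2% G or C, against 58.8% for CCNA2, 65.6% for CCNB1 and 48.8% for CCNB2. These matches describe letters only. Other spellings of the CHR and of E2F sites were not searched, so a missing match does not mean a missing site.

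The deposited values are intensities, which were put on the log2 scale, and differences are cisplatin minus untreated. A probe set's brightness depends on its probes, so the level of a cyclin was compared between arrays and not with that of another cyclin. Medians over all probe sets were 34.8 (untreated), 35.9 (B1) and 35.6 (B2). B2 stood apart: the log2 differences had an SD over all genes of 0.33 for B1 against untreated, 0.60 for B2 against untreated and 0.56 between B2 and B1, so each cyclin is given array by array. All 6 measured markers of squamous epithelium had a mean log2 level of 6 or more, and they differed between arrays. EPCAM read 4545, 4503 and 4190 in untreated, B1 and B2, and CDH1 2186, 1965 and 2271. SOX2 was lowest in B1 (5656, 2416 and 5308), and the keratin genes KRT5 (1217, 1345 and 4251) and KRT14 (278, 276 and 2372) and the desmosome gene DSG3 (375, 321 and 790.1) were highest in B2. Markers of other cell types went both ways. Of 4 leukocyte markers, 1 was higher and 2 were lower in both cisplatin arrays. CD14 read 20.4, 25.4 and 25.1, and PTPRC 6.24, 5.24 and 5.50. Among 6 endothelial markers, 3 were higher and 2 lower in both arrays. PECAM1 read 40.9, 55.1 and 49.6, and CDH5 10.3, 6.36 and 6.86. Summed intensities of 7 fibroblast markers were 297, 327 and 420, of 4 leukocyte markers 89.0, 96.0 and 91.3, and of 6 endothelial markers 131, 156 and 153. The part of these in the cyclin values was not tested.

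No cyclin probe set passed limma's test (0 of 25), and neither did any other (0% of 54613 probe sets, smallest adjusted p = 0.95 by limma with Benjamini-Hochberg adjustment). At an unadjusted p under 0.05 there were 2165 probe sets (3.96%), of which 1 was a cyclin probe set. With 1 untreated array against 2, an exact permutation test of a single value has 3 arrangements and cannot go below p = 0.33. The cyclin values below are therefore descriptions, and "higher" or "lower" compares arrays.

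Taken by its brightest probe set, 4 of the 10 cyclins were higher in both cisplatin arrays than in the untreated one (CCND3, CCNE1, CCNE2 and CCNG2), against 39.2% of all genes, and 1 was lower in both (CCND2), against 27.4%. All 10 cyclins were among the 10209 genes with a mean log2 level of 6 or more, of which 29.8% were higher and 34.2% lower in both arrays. None was at least 2-fold higher in both (0.142% of all genes) or at least 2-fold lower in both (0.678%). At 1.5-fold, CCNE1 was higher in both (0.956% of all genes) and none was lower (2.65%). The other 5 cyclins lay on opposite sides of the untreated array in B1 and B2. The median log2 difference of the 10 cyclins was 0.03 in B1 and 0.21 in B2, against 0.03 and 0.05 over all genes. Over probe sets, 10 of 25 were higher in both arrays (39.3% of all probe sets) and 5 were lower in both (28.3%); these counts became 10 and 6 after quantile normalization, and 8 and 6 after median centring.

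**Figure D1:**
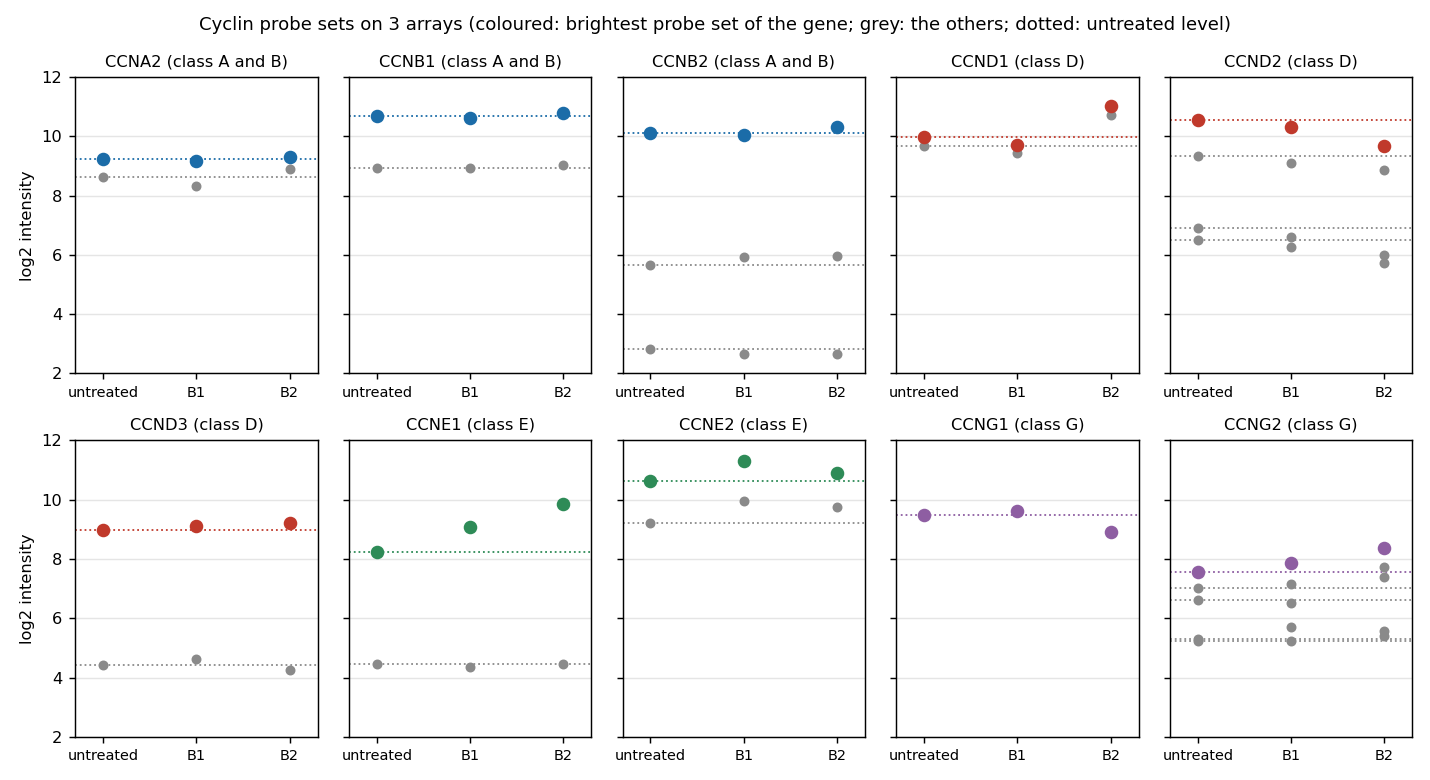
Log2 intensity of each cyclin probe set on the untreated, B1 and B2 arrays, 1 point per array, with coloured points for the brightest probe set of a gene, grey points for the others and a dotted line at the untreated level. CCNE1's brightest probe set goes from 8.23 to 9.07 and 9.85, both CCND1 probe sets stand above the line in B2 and below it in B1, and the brightest probe sets of CCNA2, CCNB1 and CCNB2 stay near the line.

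**Figure D2:**
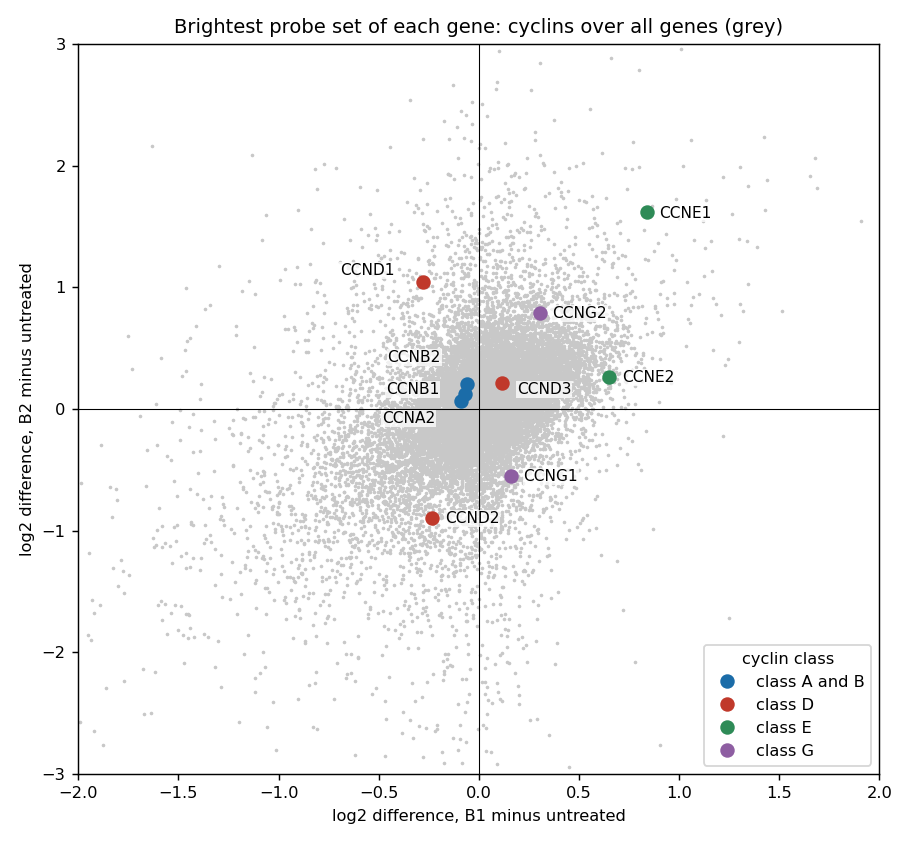
Log2 difference from the untreated array in B1 (horizontal) and B2 (vertical), with all genes in grey and the 10 cyclins coloured by class, each by its brightest probe set; 95 genes lie outside the axes. Both differences share the untreated array. CCNE1 lies at 0.84 and 1.62, CCND1 at -0.28 and 1.04, and CCND2 at -0.23 and -0.89.

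Among the D-type cyclins, which open the G1 phase, CCND1 and CCND2 stood on opposite sides in B2 and on the same side in B1. The brightest CCND1 probe set read 1021 without cisplatin, 841 in B1 and 2102 in B2. Its log2 difference was -0.28 in B1 and 1.04 in B2, so that B2 alone was 2.06-fold above untreated. The other probe set gave nearly the same pattern, at 811, 700.2 and 1689, or -0.21 and 1.06. The untreated value of CCND1 thus lay between the cisplatin values, and the limma mean of 0.38 had an SE of 0.66 and a 95% interval from -1.65 to 2.41. The B2 difference of CCND1 was above those of 96.5% of the 10209 brighter genes, and the B1 difference above 20.1% of them.

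CCND2, the D-type cyclin that was lower in both arrays, read 1513 without cisplatin, 1287 in B1 and 815 in B2. The log2 differences were -0.23 and -0.89, with a mean of -0.56 (SE 0.36, 95% interval -1.68 to 0.55). All 4 of its probe sets were lower in both arrays, between -0.31 and -0.22 in B1 and between -0.92 and -0.46 in B2. CCND2 was thus lower with every probe set, and by more in B2 than in B1. The log2 ratio of CCND1 to CCND2, compared with that in the untreated array, changed by -0.05 in B1 and by 1.94 in B2.

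CCND3 read 509 untreated, 552 in B1 and 591 in B2, with log2 differences of 0.12 and 0.21 (mean 0.17, 95% interval -0.39 to 0.73). Both cisplatin values were above the untreated one, but by little. Its second probe set was dim, at 21.6, 24.8 and 19.0, and differed by 0.20 and -0.18. CCND3 has by far the longest genomic span of the members, 115 kb against 7.44 to 31.6 kb for the other 9.

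Both E-type cyclins, the activators of CDK2 at the entry into S phase, were higher in both cisplatin arrays. CCNE1 read 301 untreated, 537 in B1 and 922 in B2. This is 1.79-fold and 3.07-fold, or 0.84 and 1.62 on the log2 scale, with a mean of 1.23 (SE 0.42, 95% interval -0.05 to 2.50). Among the same 10209 brighter genes it ranked 53rd from the top in B1 and 99th in B2, and its adjusted p was 0.95 by limma. The value rests on 1 probe set: the other was dim and nearly level at 21.7, 20.6 and 22.1, and the mean over both probe sets was 0.60.

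CCNE2 read 1606 untreated, 2523 in B1 and 1927 in B2, or 0.65 and 0.26 on the log2 scale, and its second probe set read 595, 998 and 866, or 0.75 and 0.54. Both probe sets of CCNE2 were therefore higher in both arrays, and by more in B1, whereas CCNE1 was further from untreated in B2. The second probe set was the 1 cyclin probe set under the unadjusted threshold, with a mean of 0.64 (95% interval 0.02 to 1.26) and an adjusted p of 0.95 by limma. That probe set was not under the threshold with a mean-variance trend, at mean log2 levels of 6 or more, or after median centring. The mean of the brightest CCNE2 probe set was 0.46 (95% interval -0.33 to 1.25). In B1 CCNE1 and CCNE2 were close, their log2 ratio changing by 0.19, and in B2 it changed by 1.35.

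By their brightest probe sets, the cyclins of S phase, G2 and mitosis stayed nearest to the untreated array. CCNA2 read 606 untreated, 571 in B1 and 634 in B2, with log2 differences of -0.09 and 0.06. CCNB1, the main partner of CDK1, read 1639, 1563 and 1783, with differences of -0.07 and 0.12. CCNB2 read 1096, 1052 and 1263, with differences of -0.06 and 0.20. In each of these 3 genes B1 was lowest and B2 highest, with the untreated array between them, except that after quantile normalization the B1 difference of CCNA2 was 0.0036. The means were -0.01, 0.03 and 0.07, and the 95% intervals reached from -0.60 to 0.57 for CCNA2, from -0.58 to 0.64 for CCNB1 and from -0.60 to 0.74 for CCNB2. Differences of up to about 1.5-fold in either direction were thus within the intervals.

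The other probe sets of the mitotic cyclins differed from the untreated array by -0.29 to 0.30. The second CCNA2 probe set had a wider gap than the brightest, at 396, 323 and 479, or -0.29 and 0.27. Averaged over probe sets, CCNA2 was at -0.19 and 0.17, further from untreated than CCND3 at 0.16 and 0.02. The second CCNB1 probe set read 486, 489 and 529.7 (0.01 and 0.12, with the former at -0.03 after median centring). Of the remaining CCNB2 probe sets, 1 read 51.1, 61.6 and 63.1 (0.27 and 0.30) and the other, among the dimmest of all members, 7.05, 6.25 and 6.25 (-0.17 in each). Over the 7 probe sets of these 3 genes, 2 were higher in both arrays, 1 was lower in both and 4 lay below untreated in B1 and above it in B2. Compared with CCNB1, the log2 ratio of CCNE1 changed by 0.91 in B1 and 1.49 in B2, and compared with CCNA2 by 0.93 and 1.55.

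The G-type cyclins also parted in B2. CCNG1, measured by 1 probe set, read 709.9 untreated, 793 in B1 and 485 in B2, or 0.16 and -0.55 on the log2 scale (mean -0.19, 95% interval -1.38 to 0.99). The untreated value lay between the cisplatin values. CCNG2 read 189, 233 and 327, or 0.30 and 0.79, with a mean of 0.55 (SE 0.29, 95% interval -0.36 to 1.45), so both cisplatin values were above the untreated one. In both arrays 4 of its 5 probe sets were higher (3 of 5 after quantile normalization or median centring, where a dim one turned to -0.03 or -0.04 in B1), and in B2 all 5 were, from 0.19 to 0.79. The exception read 98.7, 91.3 and 169 (-0.11 and 0.78). The log2 ratio of CCNG2 to CCNG1 changed by 0.14 in B1 and by 1.34 in B2.

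**Figure D3:**
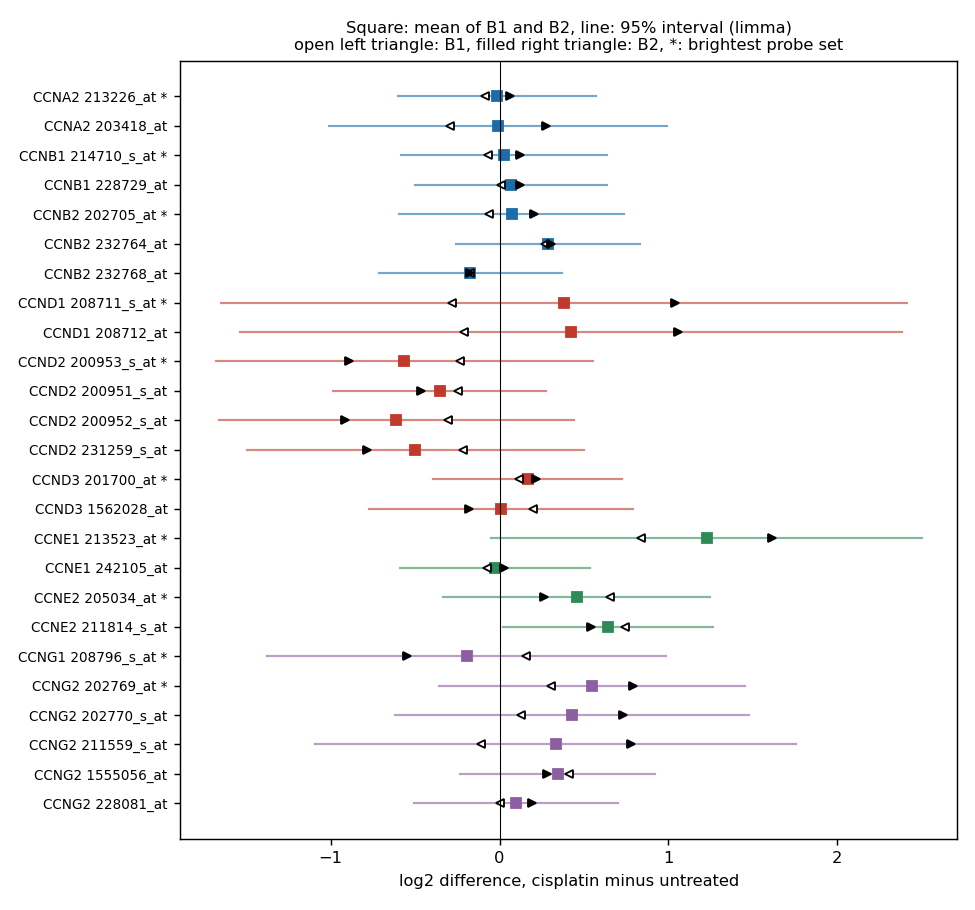
Log2 difference of all 25 cyclin probe sets, with squares for the mean of B1 and B2, lines for limma's 95% interval, open triangles for B1 and filled triangles for B2; an asterisk marks the brightest probe set of a gene. All intervals include 0 except that of the second CCNE2 probe set (0.02 to 1.26), and the wide lines of CCND1 reflect its differences of -0.28 and 1.04.

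Genes with patterns like the highest and the lowest cyclin were found by the distance between pairs of log2 differences, over the 3 arrays and among the brighter genes. The 3 nearest to CCNE1 were CABYR, a calcium-binding protein first described in sperm (0.86 and 1.67, distance 0.06), DNAJB1, a co-chaperone of HSP70 (0.83 and 1.47, distance 0.15), and GADD45B, a stress-induced growth arrest gene (0.70 and 1.55, distance 0.15). The 3 nearest to CCND2 were STXBP3, TMOD3 and PDCD2, each at -0.24 to -0.25 in B1 and at -0.88 to -0.89 in B2, with distances of 0.01. With 3 arrays many genes share a pattern, so likeness is a description only.

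The remaining cyclins were mixed. Beside the counts of this and the following lists stand the shares of all genes given above, 39.2% higher and 27.4% lower in both arrays. Most genes of each list were among the brighter genes, of which 29.8% were higher and 34.2% lower in both arrays. The lists were not tested against either set of shares. Of 14 other cyclins measured, 6 were higher in both arrays and 4 lower in both, and their median was 0.07 in B1 and -0.21 in B2. CCNY, a membrane-bound cyclin that partners CDK14 and CDK16, read 628, 372 and 295 (-0.75 and -1.09), and all 5 of its probe sets were lower in both arrays. CCNK, the partner of CDK12 and CDK13 in transcription, was at 0.19 and 0.92. CCNJ was at 0.37 and 0.53 (mean 0.45, but 0.23 over its 3 probe sets, of which 1 was lower in both arrays), and CCNF, a substrate receptor for protein destruction rather than a CDK activator, at -0.53 and -0.22.

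The kinases themselves did not share one direction. Of 5 measured cell cycle CDKs, 1 was higher in both arrays and 2 lower in both. CDK6, the kinase of the D-type cyclins, read 2148 untreated, 1031 in B1 and 1008 in B2 (-1.06 and -1.09), and was lower in both arrays with 6 of its 7 probe sets. CDK2, the partner of cyclins E and A, was at 0.19 and 0.73, and CDK7 at -0.14 and -0.06. Of 7 CDK inhibitors 4 were higher and 0 lower in both arrays: CDKN1A (p21) at 1.02 and 1.99, CDKN1C (p57) at 0.59 and 1.11, CDKN1B (p27) at 0.04 and 0.29 and CDKN3, a phosphatase of CDKs, at 0.07 and 0.08. For CDKN1C the mean over its 5 probe sets was 0.36, against 0.85 for the brightest. CDKN2A (p16 and ARF), named after its values were seen because it had the largest single difference of the list, read 182, 209 and 35.6 (0.20 and -2.35; mean -1.08, but -0.58 over its 3 probe sets). Of 7 genes that set CDK phosphorylation, 1 was higher in both arrays, PKMYT1 (0.31 and 0.85), and 1 lower, WEE1 (-0.13 and -0.07; mean -0.10, but -0.06 over its 2 probe sets), both of them kinases that inhibit CDK1.

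Upstream of the E-type cyclins, both arrays had 4 of 13 RB and E2F genes higher and 5 lower. E2F1 read 202, 293 and 311 (0.53 and 0.62), E2F2 was at 0.25 and 0.37 and the repressive E2F6 at 0.13 and 0.67, whereas E2F3 was at -0.40 and -0.34. Of 13 other genes of the G1 to S programme, which E2F also drives, 8 were higher and 2 lower in both arrays, and the medians were 0.14 and 0.15. The replication licensing genes CDC6 (0.68 and 0.76), CDT1 (0.30 and 0.76) and ORC1 (0.13 and 0.44) were higher, and TYMS, thymidylate synthase, was at -0.07 and -0.47 (mean -0.27, but -0.09 over its 3 probe sets, of which 1 was lower in both arrays).

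Beside the mitotic cyclins, both arrays had 2 of 17 other G2 and M genes higher and 9 lower; the median was -0.26 in B1 and -0.10 in B2. CENPF was at -0.38 and -1.40, AURKA at -0.41 and -1.01, BUB1B at -0.69 and -0.54 and CENPE at -0.72 and -0.45. The 2 higher genes were BIRC5 (0.08 and 0.34) and PTTG1 (0.16 and 0.31). Others lay below untreated in B1 and above it in B2, among them KIF20A (-0.19 and 0.99), CENPA (-0.09 and 0.71) and AURKB (-0.26 and 0.67; mean 0.21, but 0.11 over its 2 probe sets), and these 5 genes were named after their values were seen. The brightest CCNA2, CCNB1 and CCNB2 probe sets differed by -0.09 to -0.06 in B1 and by 0.06 to 0.20 in B2. These differences lay above both medians of the other G2 and M genes. Not all probe sets of the 3 cyclins did: 1 of CCNA2 was at -0.29 in B1, and a dim 1 of CCNB2 at -0.17 in B2. The gap to the medians was not tested. Of 9 genes that regulate mitotic cyclin transcription, the LIN genes among them in either direction, 2 were higher and 6 lower in both arrays. MYBL2 (B-MYB) was at 0.28 and 0.39, LIN52 at -0.52 and -0.60, NFYA, a subunit of the CCAAT-binding factor NF-Y, at -0.38 and -0.32 (its 6 probe sets averaged 0.08), and LIN54, the subunit that binds the CHR, at -0.63 and -0.87 from a dim 38.3.

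Genes linked to cyclin destruction went both ways, with 8 of 18 higher and 7 lower in both arrays. Not all of them promote it: FBXO5 (0.36 and 0.27), among the higher ones, restrains it. FBXW7, which recognises phosphorylated cyclin E for ubiquitination, read 171, 102 and 144 (-0.75 and -0.25). Of its 4 probe sets, 2 were lower and 1 was higher in both arrays. AMBRA1, which directs D-type cyclins to destruction, was at -0.54 and -0.41, with 3 of its 5 probe sets lower and 1 higher in both arrays. UBE2S, a ubiquitin-conjugating enzyme of the anaphase-promoting complex, was at 0.17 and 0.86, and CRYAB, a small heat shock protein, at 0.14 and 1.41 from a dim 39.7. Of 6 measured regulators and partners of the G cyclins 0 were higher and 5 lower in both arrays. FOXO3, a factor that can induce CCNG2, read 1290.4, 941 and 369 (-0.46 and -1.81). FOXO1 was at -1.07 and -0.01, with 1 of its 3 probe sets lower in both arrays and 0 higher. MDM2 was at -0.18 and -1.12 (mean -0.65, but -0.21 over its 10 probe sets, 2 of them higher and 4 lower in both arrays). PPP2R5C, a PP2A subunit, was at -0.18 and -0.25. Its 6 probe sets averaged 0.06, with 3 higher and 3 lower in both arrays.

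**Figure D4:**
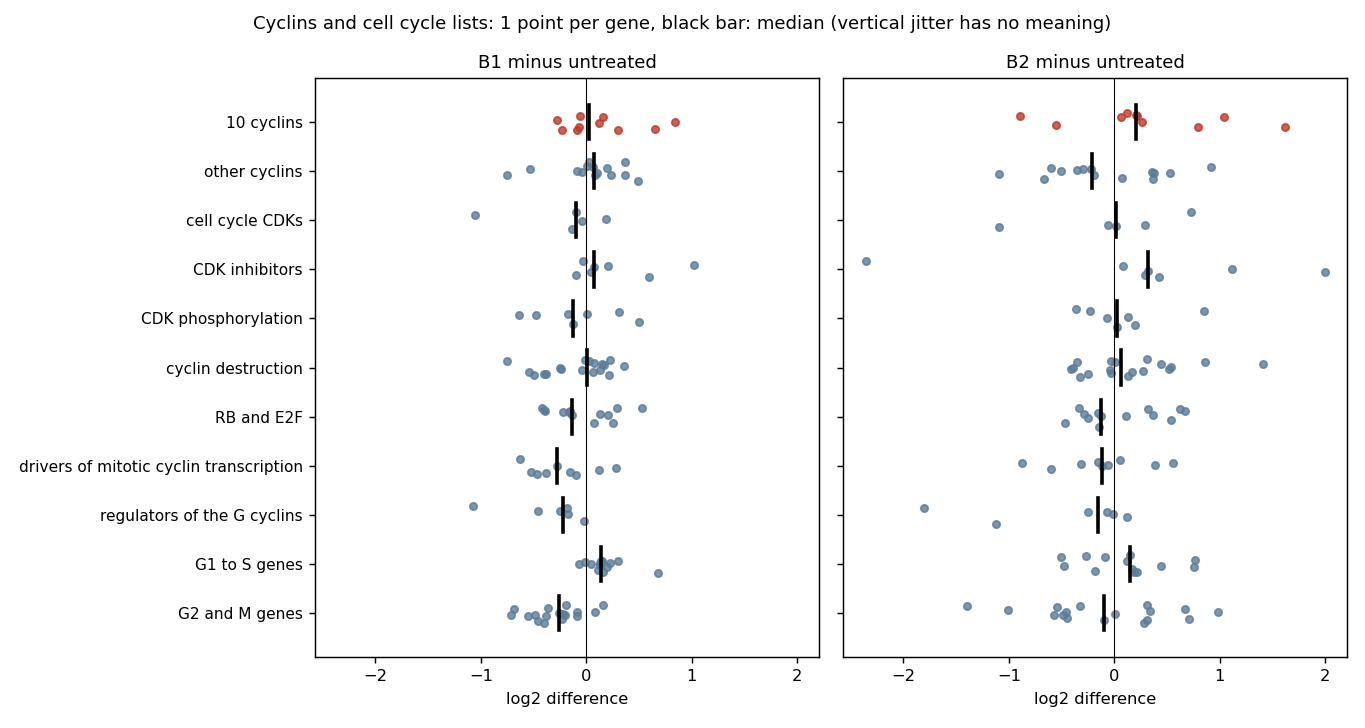
Log2 differences from the untreated array in B1 (left) and B2 (right) of the 10 cyclins and of 10 lists of cell cycle genes, 1 point per gene by its brightest probe set, with a black bar at each median. Medians of the cyclins are 0.03 and 0.21, of the G1 to S genes 0.14 and 0.15, and of the G2 and M genes -0.26 and -0.10.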

How the data were processed

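RNA of KYSE140 was measured on 3 arrays: 1 untreated, 2 with cisplatin. Each probe set has 1 deposited intensity per array, made by the authors with RMA (background correction, normalization between arrays and summary of probes), per the submitters' processing notes; not given in the sources used here are the RMA version, the chip's definition file and any detection calls. The deposited intensities ran from 3.03 to 19645, which is a linear and not a log2 scale; log2 was taken with no pseudocount, as every value was above 0. Whether a dim probe set detects its transcript is unknown. The number of arrays limits precision.

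After leaving out 62 control probe sets, 41091 had 1 gene symbol, 1801 several and 11721 none listed; symbols were updated by gene number to GRCh38.p14. The probe set of highest mean log2 level stood for its gene. limma 3.58.1 in R 4.3.3 (lmFit, eBayes) was fitted to all 54613 probe sets, two-sided, with p-values adjusted by Benjamini-Hochberg and called under 0.05. It had 1 residual degree of freedom and a prior of 2.21, and takes the single untreated array to vary as the treated pair does. The fit was also run on data simulated with the same spread in every array, which cannot check that assumption. Named were all members and, per list, up to 4 genes with the largest mean difference among those with 1 sign in both arrays. Members, lists and rules were chosen with earlier results of these data known. Motifs were searched in RefSeq promoters. Alternatives covered the variance prior, dim probe sets, scaling, the choice of probe set, the size threshold and each cisplatin array alone.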

Additional observations from a re-analysis of the deposited data

How the results depend on the processing

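No probe set, cyclin or other, was called under the 6 alternatives of the limma fit (trend, robust prior, mean log2 level of 6 or more, quantile normalization, median centring, 1 probe set per gene), in which 565 to 2471 had an unadjusted p under 0.05. At least 2-fold higher in both arrays were 0 cyclins, against 1 (CCNE1) at a threshold of 1.5-fold; without B1 the count was 2 (CCND1 and CCNE1) and without B2 it was 0. At least 2-fold lower were 0 under these settings. The median log2 difference of 0.12 became 0.29 with probe sets ending in plain _at, which left 8 of the 10 genes. The genes lost were CCND2 and CCNG1, which had the lowest means of the members (-0.56 and -0.19). Leaving out a cisplatin array leaves no residual degree of freedom, so limma was not run. The mean changed sign for CCNA2 with quantile normalization (from -0.01 to 0.07) and with B2 alone, for CCNB1 with median centring (from 0.03 to -0.01), and for CCNB1, CCNB2, CCND1 and CCNG1 with B1 alone. Quantile normalization changed the sign of 1 CCNA2 and 1 CCNG2 probe set in B1 and of the dim CCNE1 probe set in B2; median centring did so for 1 CCNB1 and 1 CCNG2 probe set in B1 and the same CCNE1 one in B2. Averaging all probe sets took CCNE1 from 1.23 to 0.60. No paired analysis was possible because the untreated group has 1 array.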
